A study of Mus musculus with 4 samples.

Results

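The small nucleolar RNAs (snoRNAs) and small Cajal body RNAs of RAW 264.7 cells, a mouse macrophage-like line, were examined in cells that stably carried the expression plasmid pcDNA 3.1(+) with the long noncoding RNA Dnm3os and in cells that stably carried the same plasmid empty. Genes were taken by their symbols: those that begin with Snora, Snord or Scarna and a number, plus Gm12238, which the RefSeq table lists as a snoRNA. This gave 116 of the 24422 genes in the count tables, namely 36 H/ACA snoRNAs (Snora), 70 C/D snoRNAs (Snord), 9 small Cajal body RNAs (Scarna) and Gm12238. Where a gene had several transcripts, the one with the highest mean raw count over all 4 libraries was kept. The members were chosen by name, but the differences at Snora41 and Gm12238 were known at that time, so both are described with no p-value.

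There were 2 libraries of Dnm3os cells and 2 of empty vector cells, all at passages 3 to 6 and in medium with 5.5 mmol/L glucose. Poly(A) RNA was sequenced, per the labels. The labels give neither the number of clones behind each line nor whether replicate libraries are separate cultures. The p-values set the difference between the groups against the spread between libraries of a group, which may be technical. Other differences between the lines cannot be told apart from an effect of Dnm3os in this design. Counts over 1 transcript per gene came to 29416272 and 34314038 in the Dnm3os libraries and to 39769640 and 35447766 in the empty vector libraries. Counts at Dnm3os itself were 208 and 260 in the Dnm3os libraries, against 0 in both empty vector libraries. All 6 macrophage markers examined were expressed, with Itgam, Csf1r and Lyz2 called higher, Adgre1 and Cd68 called lower and Ptprc not called, and 12 markers of other cell types reached at most 8 counts in any library, with 6 of them at 0 in all 4.

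snoRNAs are short nuclear RNAs that act as guides. H/ACA RNAs fold into hairpins, end a few bases after an ACA triplet and direct the pseudouridine synthase dyskerin, and C/D RNAs carry a C box near the start and a D box near the end and direct the methyltransferase fibrillarin, in both cases mostly to ribosomal RNA. Small Cajal body RNAs guide the same modifications on spliceosomal RNAs. In vertebrates most of these RNAs are cut out of introns of host genes, many of which code for ribosomal proteins or translation factors, and the mature guides carry no poly(A) tail. Reads counted at such a gene in a poly(A) library can come from the guide RNA or from unspliced host RNA, and these cannot be told apart here.

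The RNAs on which the results turned are shown first, as GENCODE M21 gives them on the GRCm38 build, 5′ to 3′. Capitals mark ACA where it stands 3 bases from the end, TGATGA (a C box) within the first 20 bases and CTGA (a D box) within the last 20 bases. Snora41 lies in an intron of Eef1b2 on chromosome 1, Gm12238 in an intron of G3bp1 on chromosome 11, and Snora52 in an intron of Rplp2 on chromosome 7.
Snora41: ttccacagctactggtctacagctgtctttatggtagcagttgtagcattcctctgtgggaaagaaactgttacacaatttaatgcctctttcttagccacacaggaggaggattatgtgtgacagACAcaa
Gm12238: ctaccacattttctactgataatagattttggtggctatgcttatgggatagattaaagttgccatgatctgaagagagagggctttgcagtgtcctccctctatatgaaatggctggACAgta
Snora52: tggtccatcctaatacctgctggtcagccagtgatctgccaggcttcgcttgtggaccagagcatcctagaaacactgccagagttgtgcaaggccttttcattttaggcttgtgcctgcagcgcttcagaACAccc
Gm12238 ended in the same way as both H/ACA RNAs printed with it, with ACA 3 bases before the end.

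The 4 C/D RNAs of Rpl13a on chromosome 7 are shown as a set that shares 1 host. C/D RNAs of this locus are known as mediators of lipotoxic and oxidative stress in cultured cells.
Snord32a: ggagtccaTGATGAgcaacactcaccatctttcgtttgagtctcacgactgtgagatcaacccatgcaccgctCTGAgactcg
Snord33: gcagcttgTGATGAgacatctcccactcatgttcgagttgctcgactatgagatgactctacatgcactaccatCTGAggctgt
Snord34: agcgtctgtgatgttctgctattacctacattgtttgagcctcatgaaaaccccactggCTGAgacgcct
Snord35a: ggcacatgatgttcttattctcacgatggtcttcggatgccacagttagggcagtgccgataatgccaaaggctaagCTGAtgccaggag
An exact TGATGA was found in the window in Snord32a and Snord33 and not in Snord34 and Snord35a, and CTGA was found in all 4.

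The letters of the 114 members with a GENCODE sequence followed the classes their symbols name. On the RNA strand, ACA stood 3 bases from the end in 30 of 36 H/ACA RNAs (83.3%) and in 0 of 68 C/D RNAs, beside 2.45% of all 141767 GENCODE transcripts. TGATGA lay in the first 20 bases of 43 of 68 C/D RNAs (63.2%) and of 0 of 36 H/ACA RNAs, beside 0.7% of all transcripts. CTGA lay in the last 20 bases of 66 of 68 C/D RNAs (97.1%) and of 4 of 36 H/ACA RNAs (11.1%), beside 9.24% of all transcripts. The 9 Cajal body RNAs were mixed, with TGATGA in 4, CTGA in 5 and the ACA end in 2. Each motif was searched as spelled, without mismatches, so a member without a match may hold a variant of the box.

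Snora41, an H/ACA RNA in an intron of Eef1b2, which codes for a subunit of translation elongation factor 1, had 17 and 18 counts in the Dnm3os libraries, against 1891 and 1705 counts in the empty vector libraries. Both Dnm3os libraries were low and both empty vector libraries were high, with a wide gap between the groups. Scaled to the library size as CPM, this was 0.551 ± 0.0372 CPM in Dnm3os cells and 47.8 ± 0.592 CPM in empty vector cells (SD, n = 2 each). The pooled ratio of Dnm3os to empty vector was 0.0115, with a 95% interval of 0.00799 to 0.016 that covers counting error only, and the fitted log2 fold change was −6.43. In the empty vector libraries Snora41 had counts of the same order as the snoRNAs of ribosomal protein genes. In bulk RNA, fewer cells with the RNA and less RNA in each cell cannot be told apart.

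The host of Snora41 was level between the groups. Eef1b2 had 20884 and 23658 counts in the Dnm3os libraries, against 27710 and 25079 in the empty vector libraries, which is 709 and 690 CPM in the Dnm3os libraries, against 695 and 710 CPM in the empty vector libraries. The groups overlapped, and the log2 fold change of Eef1b2 was −0.01 ± 0.03 (SE; adjusted p = 0.949 by edgeR). As a share of the counts of Eef1b2, Snora41 stood at 0.0814 and 0.0761% in the Dnm3os libraries, against 6.82 and 6.80% in the empty vector libraries.

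Gm12238, in an intron of G3bp1, which codes for an RNA-binding protein of stress granules, had 1 count in each Dnm3os library, against 241 and 217 counts in the empty vector libraries. Both Dnm3os libraries were at the edge of detection, and the groups did not overlap. The pooled ratio was 0.00515, with a 95% counting interval of 0.000622 to 0.0187, so the depth of the Dnm3os libraries sets how far below the empty vector level it can be placed. G3bp1 had 14284 and 16716 counts in the Dnm3os libraries, against 19562 and 16846 in the empty vector libraries, with a log2 fold change of 0.01 (adjusted p = 0.918 by edgeR). As a share of host counts, Gm12238 stood at 0.00645% over the pooled Dnm3os libraries and at 1.26% over the pooled empty vector libraries. Of the 13172 genes tested in the whole table, 3 had a log2 fold change under −6, namely Snora41, Gm12238 and 1810010D01Rik. Snora41 and Gm12238 were known beforehand and 1810010D01Rik was named after its value was seen, so nothing is read from this count.

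Snora52, an H/ACA RNA in an intron of Rplp2, which codes for an acidic protein of the ribosomal stalk, was the one RNA with over 1000 counts on average whose libraries of a group disagreed. It had 1674 and 923 counts in the Dnm3os libraries, against 2244 and 1880 in the empty vector libraries. In CPM this was 56.9 and 26.9 in the Dnm3os libraries, against 56.3 and 53.2 in the empty vector libraries. Dnm3os 2 alone was low and Dnm3os 1 was the highest of the 4, so the groups overlapped and the log2 fold change of −0.40 ± 0.49 did not pass (adjusted p = 0.764 by edgeR). Rplp2 was highest in Dnm3os 2, with 568 and 644 CPM in the Dnm3os libraries, against 558 and 478 in the empty vector libraries (log2 fold change 0.23 ± 0.14, adjusted p = 0.531). The share of host counts was 10.0 and 4.18% in the Dnm3os libraries, against 10.1 and 11.1% in the empty vector libraries.

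The value of Snora52 rested on single libraries. Without Dnm3os 1 the edgeR log2 fold change was −1.03 (adjusted p = 7.93e-08), and without Dnm3os 2 it was 0.05 (adjusted p = 0.703). Without empty vector 1 the value was −0.36 and was called (adjusted p = 1.79e-06), in a fit that gave each gene the common spread and did not use the distance between the Dnm3os libraries. Without empty vector 2 it was −0.44 (adjusted p = 0.905). A fit that left out a library assumed that the lone library of its group varied like the others.

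**Figure D1:**
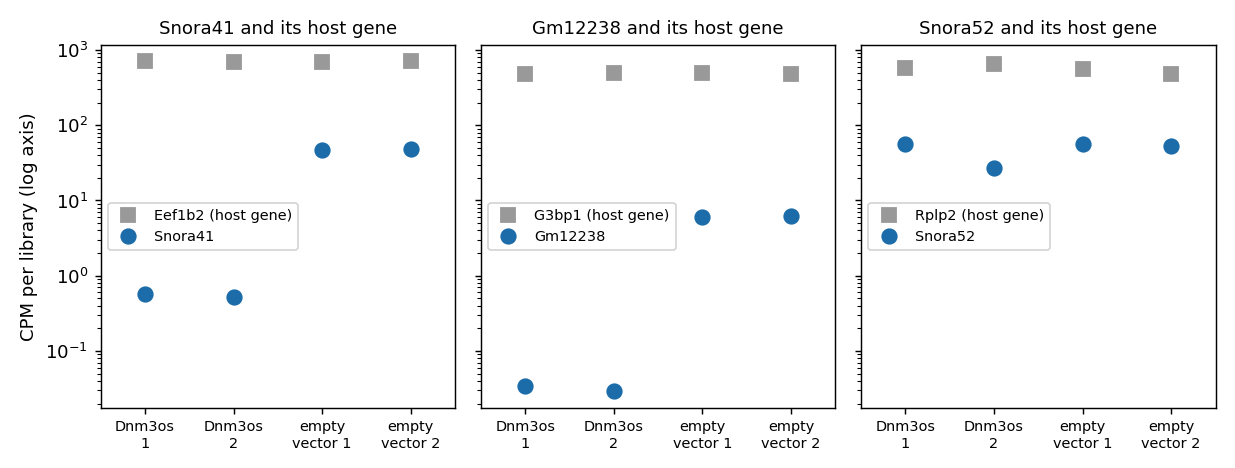
CPM of Snora41, Gm12238 and Snora52 (blue circles) and of their host genes (grey squares) in each of the 4 libraries, on a log axis. Snora41 and Gm12238 were low in both Dnm3os libraries beside level hosts, and Snora52 was low in Dnm3os 2 only.

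Across all members, 106 passed the filter on low counts (34 H/ACA, 64 C/D, 7 Cajal body RNAs and Gm12238) and 10 did not. At an adjusted p under 0.05 by edgeR, 0 members were called higher, where 6.51% of all genes tested were, and 2 were called lower, where 5.75% of all genes were. The 2 were Snora41 and Gm12238, the members whose differences were known beforehand, and nothing is read from that count. Of the other 104 members, 0 were called in either direction, beside 12.3% of all genes tested, and DESeq2 and limma-voom called 0 as well. At an unadjusted p under 0.05 edgeR gave 2 of the 104, Snora21 and Snord15a. The groups did not overlap at 22 of the 104 on the higher side and at 12 on the lower side, together 32.7%, beside 51.2% of all genes tested.

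The class medians lay at or near 0. The median log2 fold change was 0.00 over the H/ACA RNAs tested and 0.00 over the C/D RNAs tested, the same as the 0.00 over all genes tested, and 0.18 over the 7 Cajal body RNAs tested, all of them with few counts. The summed level of all H/ACA RNAs was 912 and 869 CPM in the Dnm3os libraries, against 934 and 938 CPM in the empty vector libraries, a ratio of 0.951. Without Snora41 the H/ACA sum was 911 and 868 CPM in the Dnm3os libraries, against 887 and 889 CPM in the empty vector libraries, and the ratio was 1.00. The lower Dnm3os sum was that of Dnm3os 2, the library in which Snora52 was low.

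The C/D sum was 1550 and 1560 CPM in the Dnm3os libraries, against 1560 and 1550 CPM in the empty vector libraries, with overlapping groups and a ratio of 0.997. The Cajal body sum was 4.96 and 4.84 CPM in the Dnm3os libraries, against 4.44 and 4.27 CPM in the empty vector libraries, a ratio of 1.13. These sums got no test, and no Cajal body RNA was called (lowest adjusted p = 0.514 by edgeR, for Scarna6).

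**Figure D2:**
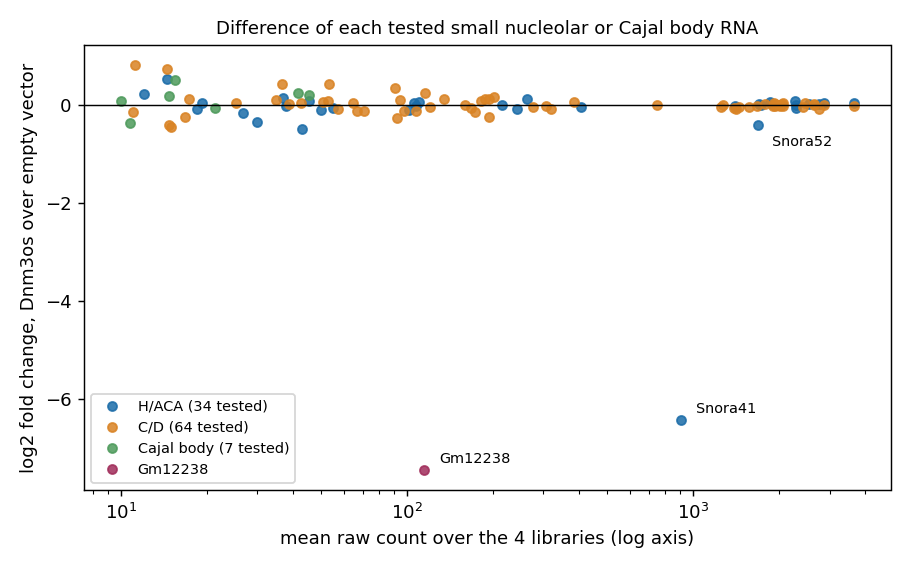
Log2 fold change of Dnm3os over empty vector (vertical axis) against the mean raw count over the 4 libraries (log axis), 1 point for each of the 106 members tested, coloured by class. Snora41 and Gm12238 lie under −6, Snora52 lies just under the band of the other abundant members, and the scatter widens as counts fall.

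Precision was highest for the 37 members with a mean of at least 1000 counts, 13 H/ACA and 24 C/D RNAs. With Snora52 set aside, the log2 fold changes of the other 36 lay between −0.08 and 0.09, with SE of 0.03 to 0.06 and adjusted p of 0.188 to 0.997 by edgeR. The 2 libraries of a group differed by at most 1.13 times among the Dnm3os libraries and 1.11 times among the empty vector libraries. The groups overlapped at 24 of the 36, while 8 were higher and 4 lower in both Dnm3os libraries, where 26.2% of all genes tested were higher and 25.0% lower in this way.

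The H/ACA RNA with the highest counts, and the highest level per length (809 CPM per kb), was Snora62, from an intron of Rpsa (ribosomal protein SA, also known as the laminin receptor precursor). Snora62 had 107 and 107 CPM in the Dnm3os libraries, against 102 and 104 CPM in the empty vector libraries (log2 fold change 0.05 ± 0.03, adjusted p = 0.449 by edgeR). Snora64, from Rps2, had 82.9 and 85.7 CPM in the Dnm3os libraries, against 82.0 and 80.7 CPM in the empty vector libraries. Both were slightly above the empty vector libraries and neither passed.

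Snora21, from Rpl23, had the largest difference on the higher side, with 69.7 and 65.3 CPM in the Dnm3os libraries, against 63.7 and 62.7 CPM in the empty vector libraries. The groups did not overlap, but the log2 fold change of 0.09 ± 0.04 did not pass (adjusted p = 0.188 by edgeR). Snora7a, from Rpl32, had 81.1 and 79.2 CPM in the Dnm3os libraries, against 78.7 and 79.0 CPM in the empty vector libraries. Snora70, from Rpl10 on the X chromosome, had 54.9 and 54.5 CPM in the Dnm3os libraries, against 52.5 and 52.6 CPM in the empty vector libraries. Both were higher in both Dnm3os libraries, with log2 fold changes of 0.02 ± 0.04 and 0.06 ± 0.04 that did not pass.

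Other abundant H/ACA RNAs overlapped between the groups. Snora69, from Rpl39, had 52.4 and 47.5 CPM in the Dnm3os libraries, against 47.4 and 52.3 CPM in the empty vector libraries. The spread within a group exceeded the difference between the group means. Snora65 (from Rpl12), Snora3 (Rpl27a), Snora33 (Rps12), Snora31 (Tpt1) and Snora75 (Ncl, nucleolin) had log2 fold changes from −0.01 to 0.02.

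Among the C/D RNAs, Snord73b of Rps3a1 had the highest counts, with 105 and 103 CPM in the Dnm3os libraries, against 104 and 107 CPM in the empty vector libraries. Its neighbour in the same host, Snord73a, had 70.7 and 67.1 CPM in the Dnm3os libraries, against 70.0 and 70.5 CPM in the empty vector libraries. The groups overlapped at both. Per length, the highest levels over the 4 libraries were 1480 CPM per kb for Snord73b and 1230 CPM per kb for Snord42a, both C/D RNAs, which are the shorter class (median RefSeq length 68 bases, against 120 bases for H/ACA RNAs).

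Snord15a of Rps3 had the lowest log2 fold change among the abundant C/D RNAs, with 75.3 and 78.6 CPM in the Dnm3os libraries, against 82.2 and 80.8 CPM in the empty vector libraries. The groups did not overlap, and the log2 fold change of −0.08 ± 0.04 did not pass (adjusted p = 0.208 by edgeR). Its near copy in the same host, Snord15b, had 55.0 and 55.4 CPM in the Dnm3os libraries, against 55.8 and 55.7 CPM in the empty vector libraries. How reads shared between such lettered copies were counted is not given in the sources used here, so their split is uncertain.

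The 4 C/D RNAs of Rpl13a shown above overlapped between the groups and differed among themselves. Snord33 had 57.1 and 57.8 CPM in the Dnm3os libraries, against 58.6 and 57.1 CPM in the empty vector libraries. Snord34 had 60.5 and 58.6 CPM in the Dnm3os libraries, against 58.9 and 58.1 CPM in the empty vector libraries. Snord35a had 63.3 and 58.2 CPM in the Dnm3os libraries, against 58.4 and 58.8 CPM in the empty vector libraries. These 3 differed between the group means by less than 3 CPM. Snord32a, from the same host transcript, had 21.5 and 21.7 CPM in the Dnm3os libraries, against 22.8 and 20 CPM in the empty vector libraries, and per length its 265 CPM per kb was below the 670 to 894 CPM per kb of the other 3. Their log2 fold changes ran from −0.01 to 0.05, and that of Rpl13a was 0.02 (adjusted p = 0.778 by edgeR).

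Rpl23a, Rack1 and Rpl3 each held several abundant C/D RNAs. In Rpl23a, Snord4a, Snord42a and Snord42b had log2 fold changes of 0.00, 0.04 and 0.01. In Rack1, which codes for a scaffold protein of the small ribosomal subunit, Snord96a and Snord95 had 0.02 and −0.01. Rpl3 held Snord83b at −0.01 and Snord43 at −0.03. None passed, and the same held for Snord100 (Rps12), Snord16a (Rpl4), Snord68 (Rpl13), Snord37 (Eef2), Snord82 (Ncl), Snord72 (Rpl37) and Snord58b (Rpl17).

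Another 52 members, beside Snora41 and Gm12238, had a mean of 20 to under 1000 counts. Their log2 fold changes ran from −0.48 to 0.44 with SE of 0.07 to 0.35, and the lowest adjusted p was 0.223 by edgeR. Snord11 and Snord70 share the host Nop58, a core protein of C/D particles. Snord11 had 4.72 and 5.37 CPM in the Dnm3os libraries, against 6.12 and 5.86 CPM in the empty vector libraries, a log2 fold change of −0.24 ± 0.12 with an adjusted p of 0.223. Snord70 had 6.39 and 5.39 CPM in the Dnm3os libraries, against 4.89 and 5.89 CPM in the empty vector libraries. The groups were apart at Snord11 and overlapped at Snord70, and Nop58 stood at 0.01.

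Nop56, another core protein of C/D particles, hosts Snord57 and Snord110. Snord57 had 11.7 and 11.0 CPM in the Dnm3os libraries, against 11.3 and 10.4 CPM in the empty vector libraries. Snord110 had 5.71 and 6.53 CPM in the Dnm3os libraries, against 5.47 and 5.49 CPM in the empty vector libraries (adjusted p = 0.457 by edgeR). Only Snord110 had separate groups.

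Members in noncoding hosts had few counts. The long noncoding RNA 2410006H16Rik holds Snord49a, Snord49b and Snord65. Snord49b had 2.75 and 3.15 CPM in the Dnm3os libraries, against 2.23 and 2.43 CPM in the empty vector libraries (log2 fold change 0.35 ± 0.17, adjusted p = 0.223). Snord49a had 3.43 and 3.79 CPM in the Dnm3os libraries, against 3.21 and 2.91 CPM in the empty vector libraries (0.24 ± 0.15, adjusted p = 0.38). Both sets of libraries were apart, Snord65 overlapped at 0.11, and the host transcript stood at 0.13, none of them past the threshold.

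Snhg12 held 4 members at about 1 CPM each. Snord99 had 1.26 and 1.20 CPM in the Dnm3os libraries, against 1.00 and 0.792 CPM in the empty vector libraries (log2 fold change 0.44 ± 0.27, adjusted p = 0.358 by edgeR). Snora61, Snora16a and Snora44 of the same host had log2 fold changes of −0.10, −0.01 and 0.14. Snord47, from Gas5, a long noncoding RNA known from growth arrest, had 9.44 and 8.37 CPM in the Dnm3os libraries, against 9.65 and 9.14 CPM in the empty vector libraries, with overlapping groups.

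Genes of translation initiation host several members of both classes. Snora28, from Eif5, had 8.32 and 7.52 CPM in the Dnm3os libraries, against 7.37 and 7.07 CPM in the empty vector libraries, with groups apart (0.13 ± 0.10, adjusted p = 0.521 by edgeR). Eif4a2 holds Snora81, at 0.04, and Snord2, which had 2.31 and 2.48 CPM in the Dnm3os libraries, against 3.08 and 2.63 CPM in the empty vector libraries (−0.26 ± 0.17, adjusted p = 0.413). Snord66 of Eif4g1 overlapped between the groups at −0.03.

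The other members of this range lay between −0.34 and 0.25 on the log2 scale, and none passed. In protein-coding hosts they were Snora20 (Tcp1), Snord17 (Snx5), Snord19 and Snord69 (Gnl3, nucleostemin), Snord53 and Snord92 (Wdr43), Snord111 (Sf3b3), Snora2b and Snora34 (Kansl2), Snora5c (Tbrg4), Snord23 (Nop53), Snord45b and Snord45c (Rabggtb), Snord71 (Ap1g1), Snord67 (Ckap5), Snora36b (Rab3gap2), Snord61 (Rbmx), Snora15 (Cct6a), Snora47 (Zbed3) and, in 2410002F23Rik, Snord88a and Snord88c. In noncoding hosts they were Snord22 (Snhg1), Snord12 (Zfas1), Snord52 (1110038B12Rik), Snord87 (Snhg6), Snora24 (Snhg8) and Snord93 (2700038G22Rik). Snord104 had no host found. The 3 Cajal body RNAs in this range were Scarna10 (Ncapd2), Scarna3a (Cop1) and Scarna8 (Haus6), and Scarna3a, at 38 and 46 counts in the Dnm3os libraries, against 43 and 40 in the empty vector libraries, had a log2 fold change of 0.25 ± 0.25.

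The lowest log2 fold change in this range, −0.48 ± 0.25, was at Snora74a, for which no host was found. It had 26 and 39 counts in the Dnm3os libraries, against 61 and 46 in the empty vector libraries, which in CPM is 0.883 and 1.14 in the Dnm3os libraries, against 1.53 and 1.30 in the empty vector libraries (adjusted p = 0.272 by edgeR). The largest on the higher side besides Snord99 was at Snord91a, from Tsr1, with 47 and 67 counts in the Dnm3os libraries, against 49 and 50 in the empty vector libraries (0.44 ± 0.23, adjusted p = 0.258). With an SE of 0.23 to 0.25, neither difference at these 2 RNAs passed, nor could smaller ones be detected at this depth.

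Another 25 members had a mean under 20 counts, and 15 of them were tested, with log2 fold changes of −0.45 to 0.82 and SE of 0.37 to 0.50. Snord1a, Snord1b and Snord1c of Snhg16 had log2 fold changes of both signs. Snord1c had 14 and 20 counts in the Dnm3os libraries, against 13 and 11 in the empty vector libraries (0.73 ± 0.41, adjusted p = 0.309 by edgeR). Snord1b had 12 and 16 counts in the Dnm3os libraries, against 22 and 17 in the empty vector libraries (−0.24 ± 0.39, adjusted p = 0.797). These are lettered copies, and at these counts neither difference passed.

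At the lowest end, 4 members had 0 counts in all libraries. They were Snora35 of the serotonin receptor gene Htr2c, and Snord64, Snord116l1 and Snord116l2 of Snhg14. Snhg14 is the imprinted locus whose snoRNAs are known from neurons. Htr2c had 0 counts in all libraries as well. Snhg14 itself had 447 and 464 counts in the Dnm3os libraries, against 647 and 540 in the empty vector libraries. Snord118, the U8 RNA that acts in the cleavage of ribosomal RNA precursors and has its own promoter, had 0 and 0 counts in the Dnm3os libraries, against 1 and 0 in the empty vector libraries. The remaining untested members, Snora78, Snord7, Snord123, Scarna17 and Scarna2, had at most 11 counts in any library.

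The count of a member went with the kind of gene it lay in. A host gene was found for 110 of the 116 members, in 80 hosts, and 22 hosts held more than 1 member. Hosts were taken on the same strand, except for Snord73b, which had no strand found and whose host was taken without regard to strand. Where several genes held a member, the one with the highest mean count in these libraries was taken. The choice of host was therefore not independent of its counts. Of the 110, 98 lay in an intron of all basic GENCODE transcripts of the host, 6 in an intron of some of them, and 6 had a host with no GENCODE transcript around them. The mean count of a member followed that of its host (Spearman correlation 0.883 over 110 members in the same 4 libraries, a description), and did not follow its own length (−0.065 over 116 members).

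The 32 members in 22 ribosomal protein genes had a median of 1980 counts, with a range of 748 to 3650, and 31 of them had a mean of at least 1000. The 51 members in 41 other protein-coding genes had a median of 106 counts, the 27 in 17 long noncoding RNA genes a median of 36.5, and the 6 with no host found a median of 5.75. As a share of raw host counts, not corrected for the length of the host, the medians were 6.27%, 1.70% and 9.24% for the 3 kinds of host. The ranges were 2.25 to 12.9%, 0.149 to 4.78% and 0 to 244%. The top of the last range was at Snora78, whose host Snhg9 had at most 4 counts in any library. Inside ribosomal protein genes the median was 2280 counts for 11 H/ACA RNAs and 1930 counts for 21 C/D RNAs, and per length it was 548 CPM per kb for the H/ACA RNAs and 703 CPM per kb for the C/D RNAs.

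Other small structured RNAs, which have promoters of their own and no host intron, were near 0 in these libraries. The 9 listed (Rnu11, Rnu12, Rmrp, Rpph1, Terc, Vaultrc5 and 3 Rprl genes) reached at most 8 counts, and none was tested. Terc, the telomerase RNA, which ends in an H/ACA domain, had 4 and 1 counts in the Dnm3os libraries, against 5 and 5 in the empty vector libraries. Rmrp had 6 and 5 counts in the Dnm3os libraries, against 8 and 2 in the empty vector libraries. The groups overlapped at both.

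**Figure D3:**
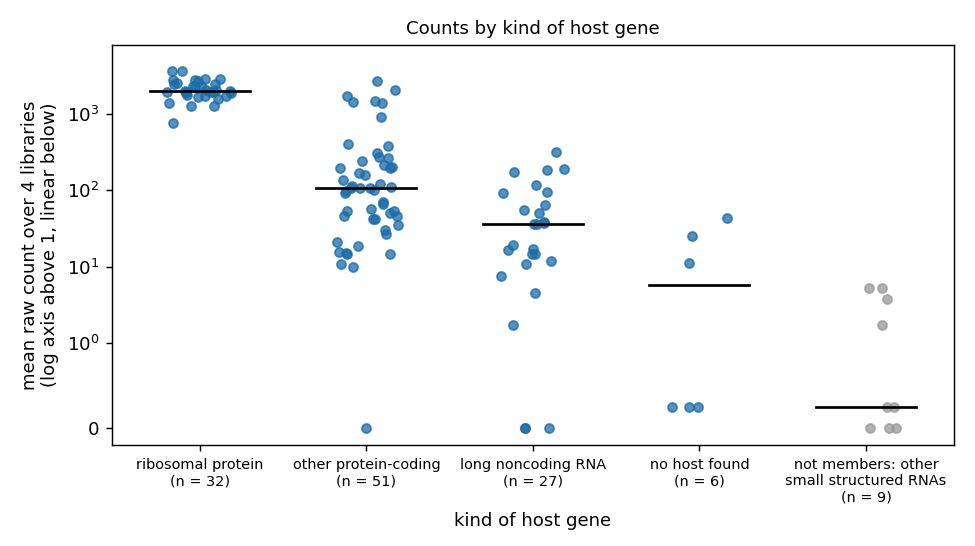
Mean raw count over the 4 libraries of each member (blue), by the kind of host gene, and of 9 other small structured RNAs that are not members (grey), on an axis that is logarithmic above 1 and linear below. Black lines are medians, and they run from 1980 for members in ribosomal protein genes to 5.75 for those with no host found.

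The log2 fold changes of most members lay close to those of their hosts, but most members and most hosts lay near 0 themselves. Such closeness does not show that a member followed its host. Over the 87 members with a host and a mean of at least 20 counts, Snora41 and Gm12238 left out, the log2 fold change of the member minus that of its host had a median of −0.01, and 78 lay within 0.2 of 0. The range was −0.63 to 0.41, with Snora52 at the low end. Among the 36 abundant members, the share of host counts in Dnm3os cells was 0.932 to 1.03 times that in empty vector cells, with a median of 0.99 times. Snora15, in Cct6a, had a low share in both groups, at 0.137% in Dnm3os 1, against 0.179% in empty vector 1.

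**Figure D4:**
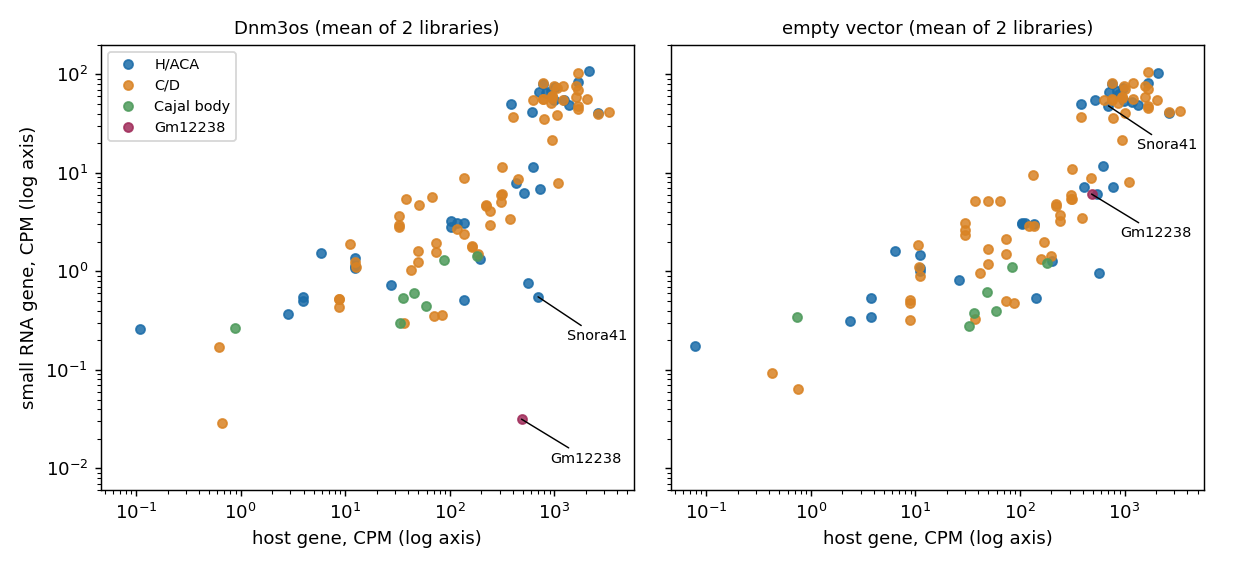
CPM of each member against CPM of its host gene, both on log axes, as the mean of 2 libraries, for the 106 members with a value above 0 in each panel. Members rise with their hosts in both panels, and Snora41 and Gm12238 leave the cloud in Dnm3os cells while their hosts stay in place.

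Few of the 80 host genes were called. Of 78 tested, 1 was called higher, beside 6.51% of all genes tested, and 2 were called lower, beside 5.75%. Rpl13, host of Snord68, had 914 and 927 CPM in the Dnm3os libraries, against 879 and 861 CPM in the empty vector libraries (log2 fold change 0.08 ± 0.03, adjusted p = 0.0371 by edgeR). Eif3a, a subunit of a translation initiation factor and host of Snora19, had 726 and 736 CPM in the Dnm3os libraries, against 773 and 787 CPM in the empty vector libraries (−0.09 ± 0.03, adjusted p = 0.0191). Ipo7, a nuclear import receptor and host of Snora23, had 521 and 510 CPM in the Dnm3os libraries, against 544 and 555 CPM in the empty vector libraries (−0.09 ± 0.03, adjusted p = 0.036).

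These 3 differences were small, and their members did not pass: Snord68 stood at 0.03, Snora19 at −0.07 and Snora23 at 0.00. The calls held in 6 of 14 alternatives for Rpl13, 10 for Eif3a and 7 for Ipo7. Of the 18 snoRNA host transcripts tested (Gas5, Zfas1 and the Snhg genes), 0 were called in either direction by edgeR, and 1, Snhg5, had an unadjusted p under 0.05.

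Of 8 genes tested for core proteins that bind these RNAs, 1 was called, beside 12.3% of all genes tested in either direction. The values are RNA levels of these genes. Of the 8 core proteins, dyskerin (Dkc1), Nhp2 and Gar1 of H/ACA particles had log2 fold changes of 0.04, −0.01 and 0.08, and fibrillarin (Fbl), Nop56, Nop58 and Snu13 of C/D particles had 0.01, 0.00, 0.01 and 0.07. None of these 7 passed. Nop10, the smallest H/ACA core protein, had 50.1 and 50.6 CPM in the Dnm3os libraries, against 45.4 and 45.5 CPM in the empty vector libraries. It rose by 0.15 ± 0.05 on the log2 scale (adjusted p = 0.0433 by edgeR), a call that held in 5 of 14 alternatives.

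Of 12 assembly and trafficking proteins, 1 was called, beside 12.3% of all genes tested in either direction. Tcof1 (treacle, a nucleolar protein of ribosome synthesis) had 339 and 356 CPM in the Dnm3os libraries, against 320 and 319 CPM in the empty vector libraries, a log2 fold change of 0.12 ± 0.03 (adjusted p = 0.0116 by edgeR). The call was lost without Dnm3os 2 (adjusted p = 0.227) and without empty vector 1 (adjusted p = 0.0573). Of 7 proteins of the Cajal body and the SMN complex, among them coilin (Coil, −0.09) and Wrap53 (0.06), 0 were called by edgeR, and 2, Smn1 and Gemin4, had an unadjusted p under 0.05. Over all 27 protein genes the median log2 fold change was 0.01.

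Of 21 genes for processing and decay of nuclear RNA, 1 was called higher and 1 lower, beside 6.51% and 5.75% of all genes tested. Exosc6, an exosome subunit, had 35.6 and 38.5 CPM in the Dnm3os libraries, against 31.5 and 32.3 CPM in the empty vector libraries (0.22 ± 0.06, adjusted p = 0.0143 by edgeR). Zcchc8, a subunit of the NEXT complex that feeds nuclear RNA to the exosome, had 70.0 and 67.9 CPM in the Dnm3os libraries, against 75.5 and 74.9 CPM in the empty vector libraries (−0.13 ± 0.04, adjusted p = 0.0413). The calls held in 11 and 7 of 14 alternatives. Dbr1, the enzyme that opens intron lariats, stood at −0.03 (adjusted p = 0.826).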

How the data were processed

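Per the file headers, the files list 35786 RefSeq transcripts with a raw and a normalized count column. The raw column holds the authors' whole-number counts of reads, and the normalized column deposited beside it is a signal in which every raw count of a library is multiplied by the same constant (1.1723 and 1.0058 for Dnm3os, 0.8653 and 0.9775 for empty vector). Only the raw counts were tested. The submitters' processing notes name TopHat, Bowtie2, DESeq2 and the build mm9; which counter, annotation version or strand setting was used, and what each tool did, is not given in the sources used here. The labels' protocols name a TruSeq poly(A) kit and a HiSeq 2500.

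Transcripts were named from RefSeq (35499) and GENCODE M21 (178); 109 stayed unnamed, with 0.246 to 0.276% of the counts. The 45S ribosomal RNA transcript (0.044 to 0.081%) was removed. Hosts and strands were read from RefSeq and GENCODE on GRCm38, only for which genes hold which, and no coordinates are printed. CPM per kb used RefSeq lengths, which can be shorter than GENCODE's (113 against 132 bases for Snora41). After filterByExpr, libraries were scaled by TMM (factors 0.997 to 1.003). Dnm3os was compared with empty vector over all 13172 genes tested with edgeR 4.0.16 (quasi-likelihood, robust) in R 4.3.3, two-sided, with Benjamini-Hochberg adjustment and a threshold of 0.05. SE were taken from the fold change and the F statistic. The pipeline was tested on simulated data.

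The 2 libraries of a group differed by more than counting noise over all genes (chi-square per degree of freedom 4.16 in Dnm3os, 5.10 in empty vector). Each library was treated as 1 sample, but this spread does not show that the libraries are separate cultures. Members and gene lists were chosen with earlier results of these data known. The rule for named genes took every member with a mean of at least 20 counts, Snora41, Gm12238, all called members, their hosts, the 8 core proteins and every called protein gene; those for which no counts are printed by library are given by range, and a few are not reported here. Alternatives were DESeq2 size factors, upper-quartile factors, total counts or the authors' constants for scaling, DESeq2 1.42.0 and limma-voom (limma 3.58.1), no filter, a filter at 1 CPM in 2 libraries, summed isoforms, a replicate block, and each library left out.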

Additional observations from a re-analysis of the deposited data

How the results depend on the processing

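Under all 14 alternatives 0 members were called higher, and 2 were called lower in 12 of them. Without Dnm3os 1 and without empty vector 1 there were 3, with Snora52 added. The others called lower were Snora41 and Gm12238, whose differences were known beforehand, so nothing is read from these counts. The log2 fold change of Snora41 stayed between −6.50 and −6.36 and that of Gm12238 between −7.60 and −7.01. Over all genes, DESeq2 called 404 higher and 362 lower, against 858 and 758 by edgeR, and edgeR called 492 and 455 without Dnm3os 1 and 465 and 396 without Dnm3os 2. The few calls among protein genes were less stable. Of the snoRNP and Cajal body protein genes, 2 were called higher, but 1 with upper-quartile factors, DESeq2, the 1 CPM filter, the replicate block or summed isoforms, and 0 to 1 with a library left out. Host genes called higher numbered 0 with upper-quartile factors, DESeq2, the replicate block or summed isoforms and 0 to 2 with a library left out, and those called lower, 2 by edgeR, numbered 3 with upper-quartile factors, total counts, limma-voom, no filter or the 1 CPM filter, 1 with DESeq2, 0 with summed isoforms and 0 to 2 with a library left out. For RNA processing and decay genes, the 1 called higher became 0 with DESeq2 and 0 to 1 with a library left out, and the 1 called lower became 0 with DESeq2, the replicate block, summed isoforms or any library left out. The cause was not tested. Without Snora41 and Gm12238 the summed ratio was 0.999 for all members, in place of 0.978, and 1.00 for H/ACA RNAs, in place of 0.951. The labels do not say whether the replicate numbers pair the samples. The correlation of deviations between libraries of the same number was −0.0778, which shows no pairing but cannot exclude it. The block moved no member across the threshold. With 2 libraries a group, depth limited the members with few counts, where SE reached 0.50 on the log2 scale.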

Other observations

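Counts at other short RNA genes in these poly(A) libraries were as follows. Of 1162 microRNA genes listed, 382 were tested, and 6 were called higher (Mir2861, Mir3960, Mir5107, Mir6236, Mir6353 and Mir6973a) and 4 lower (Mir139, Mir7009, Mir7117 and Mir8114) by edgeR, beside 6.51% and 5.75% of all genes tested. These names were chosen after their values were seen. The log2 fold changes of the microRNA genes ran from −1.01 to 2.25, with a median of −0.02. Of 62 replication-dependent histone genes, whose mature messages end without a poly(A) tail, 57 were tested and 0 were called in either direction, with 9 at an unadjusted p under 0.05. The histone list was rebuilt from current symbols after the names in the tables were seen. Their summed level was 195 and 193 CPM in the Dnm3os libraries, against 181 and 188 CPM in the empty vector libraries.

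The 103 members tested other than Snora41, Gm12238 and Snora52 varied little more than counting predicts between libraries of a group, with a chi-square per degree of freedom of 1.45 in Dnm3os cells and 1.19 in empty vector cells.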
